A study of Mus musculus with 10 samples.

Results

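Granulosa cells are the somatic cells of the ovarian follicle that enclose the oocyte, and 10 genes of these cells were followed here in H3K4me3 libraries made from pools of germinal vesicle (GV) oocytes: *Fshr*, *Lhcgr*, *Cyp19a1*, *Amh*, *Amhr2*, *Inha*, *Inhba*, *Foxl2*, *Kitl* and *Nr5a1*. The question was whether follicle cells carried over into the pools could account for differences between the genotypes. The genes were chosen by name, and every 5 kb window that the deposited table assigns to one of them was taken, which gave 93 of 544879 windows: 44 of *Fshr*, 18 of *Kitl*, 11 of *Lhcgr*, 6 of *Cyp19a1*, 5 of *Nr5a1*, 4 of *Inhba*, 2 of *Amhr2* and 1 each of *Inha*, *Amh* and *Foxl2*. The oocytes came from 21-day-old C57BL6 females, about 200 oocytes to a pool. By the sample labels the *Setd1b* cKO was *Setd1b* floxed/floxed and *Gdf9*-Cre positive, and the WT was *Setd1b* floxed/floxed and *Gdf9*-Cre negative. By these labels both genotypes carried the floxed alleles and only the cKO carried Cre, although the authors' methods also count heterozygous females with Cre as WT. The *Gdf9* promoter drives Cre in oocytes, so the deletion is expected in the germ cell and not in the surrounding follicle cells, and a pool mixes oocytes of several follicles. There were 3 H3K4me3 libraries per genotype (cKO replicates 1, 3 and 4, WT replicates 1, 2 and 4) and 2 input libraries per genotype (replicates 1 and 4), in which the chromatin was sequenced without the antibody.

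Follicle stimulating hormone and luteinizing hormone act on the follicle through the receptors FSHR and LHCGR, and granulosa cells answer with oestrogen, made by the aromatase CYP19A1, and with anti-Müllerian hormone and inhibins. The transcription factors FOXL2 and NR5A1 (also named SF-1) are part of the programme of these cells, and Kit ligand from granulosa cells acts on the KIT receptor of the oocyte. H3K4me3 is a histone mark of active promoters and of CpG islands, and in growing oocytes it also covers broad stretches of unmethylated DNA outside active promoters, so that a level at the start of a gene does not by itself tell which cell it came from.

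The DNA just upstream of these genes differs in CpG content, which matters for this mark. The 250 bases before the annotated gene start are shown for *Fshr*, the gene with the least H3K4me3, and for *Foxl2*, the gene with the most CpGs, each read 5′ to 3′ along the gene from the GRCm38 genome, with CpG dinucleotides in capitals. The *Fshr* stretch is chr17:89200676-89200925 (minus strand) and holds 4 CpGs. The *Foxl2* stretch is chr9:98955038-98955287 (plus strand), lies within an exon of the antisense non-coding gene *Foxl2os*, and holds 21 CpGs. The median over 21938 protein-coding genes was 8 CpGs.
Fshr: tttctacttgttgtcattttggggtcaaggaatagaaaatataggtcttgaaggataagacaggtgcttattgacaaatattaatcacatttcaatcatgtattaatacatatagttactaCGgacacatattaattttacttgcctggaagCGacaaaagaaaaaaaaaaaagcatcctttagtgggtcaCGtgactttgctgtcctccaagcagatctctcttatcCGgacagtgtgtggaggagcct
Foxl2: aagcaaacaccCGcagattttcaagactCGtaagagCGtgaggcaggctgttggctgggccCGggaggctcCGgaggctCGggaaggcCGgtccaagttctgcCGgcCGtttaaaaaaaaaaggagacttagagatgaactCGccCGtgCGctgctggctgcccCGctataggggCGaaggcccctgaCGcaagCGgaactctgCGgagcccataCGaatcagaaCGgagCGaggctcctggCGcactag

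A further pair of stretches carry the letters AAGGTCA, the core to which NR5A1 is known to bind, shown in capitals. They belong to the start of *Cyp19a1* that ovarian cells are known to use, at chr9:54193523-54193772 (minus strand), and to *Amhr2* at chr15:102445117-102445366 (plus strand). The letters were searched on both strands and were found on the forward strand in both of these. The *Fshr* and *Foxl2* stretches printed before did not hold them on either strand. Of all protein-coding stretches of this length, 3.64% held them. A match describes the letters only.
Cyp19a1: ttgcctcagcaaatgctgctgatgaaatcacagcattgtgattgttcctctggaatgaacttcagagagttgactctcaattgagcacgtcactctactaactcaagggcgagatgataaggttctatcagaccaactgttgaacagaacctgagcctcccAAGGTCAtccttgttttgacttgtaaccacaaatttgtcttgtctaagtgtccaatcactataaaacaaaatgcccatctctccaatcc
Amhr2: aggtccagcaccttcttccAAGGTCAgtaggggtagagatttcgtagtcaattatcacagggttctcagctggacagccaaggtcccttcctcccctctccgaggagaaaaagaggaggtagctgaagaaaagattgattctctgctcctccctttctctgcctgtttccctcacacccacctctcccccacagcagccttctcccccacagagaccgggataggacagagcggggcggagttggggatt

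The measurement was the enrichment-normalized RPKM of each window, which the authors scaled so that 40% of all windows lie under 1.23 and 99% under 6.77 in every library. The H3K4me3 libraries held from 10856015 to 32775874 reads in windows, and the ratio of the reads at the 99th to those at the 40th percentile, a measure of enrichment, was 13.5, 3.47 and 3.88 in cKO replicates 1, 3 and 4 and 14.3, 5.38 and 6.97 in WT replicates 1, 2 and 4. A window without a read had a value between −1.02 and 0.81 normalized RPKM, depending on the library, so low values are best read beside their reads. Windows were compared with limma over the whole table (adjusted p under 0.05), and a positive difference is cKO minus WT. Over all windows the median difference was −0.10 normalized RPKM.

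At the gene starts the 10 genes fell into a group of 7 with H3K4me3 and a group of 3 near the level of an ordinary window. The mean over the 6 libraries was 6.31 normalized RPKM at *Inhba*, 5.64 at *Foxl2*, 5.17 at *Amh*, 5.14 at *Kitl*, 4.47 at *Inha*, 4.34 at *Amhr2* and 3.43 at *Nr5a1*, followed by 1.74 at the annotated start of *Cyp19a1*, 1.46 at *Lhcgr* and 1.07 at *Fshr*. The ranges over the libraries overlapped between all neighbours in this order.

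**Figure D1:**
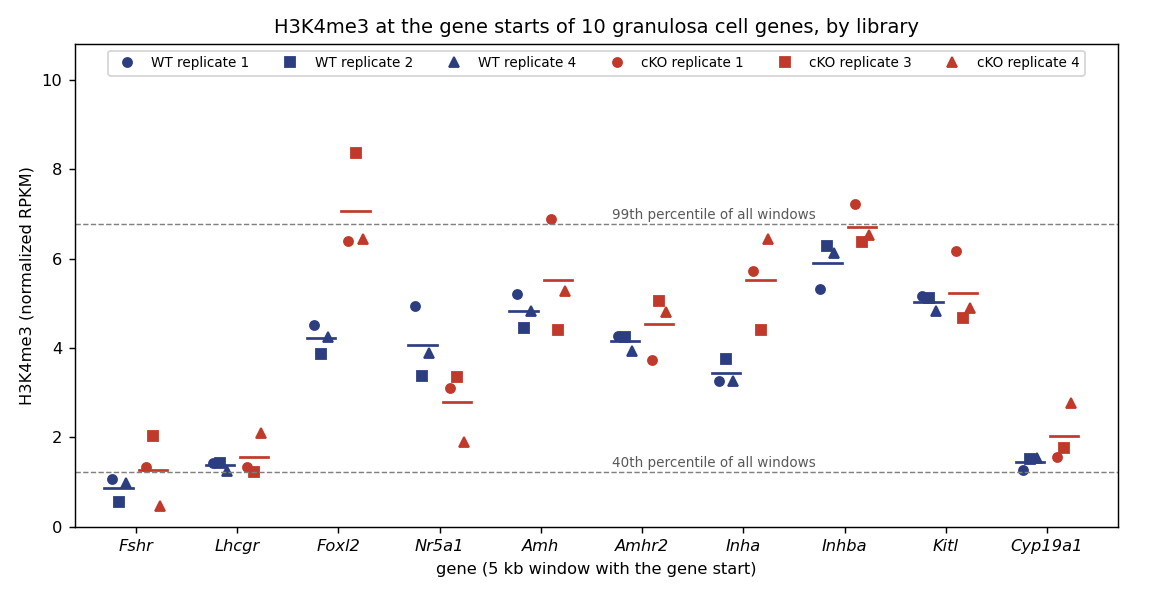
H3K4me3 (normalized RPKM, y axis) in the 5 kb window that holds the start of each of the 10 genes (x axis). Points are single libraries, blue for WT and red for cKO, short lines are group means, and dashed lines mark the 40th and 99th percentiles of all windows, and *Fshr*, *Lhcgr* and *Cyp19a1* lie between 0.46 and 2.77 in every library.

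The starts of the gonadotropin receptors were below the input in every pool that had an input library, and so was an ordinary window. *Fshr*, the receptor of follicle stimulating hormone and a defining gene of granulosa cells, starts in the window chr17:89200001-89205000 (GRCm38, as are all positions). Given in the order of replicates 1, 3 and 4 for the cKO and 1, 2 and 4 for the WT, as throughout, its values were 1.34, 2.02 and 0.46 normalized RPKM in the cKO, from 10, 23 and 24 reads, and 1.07, 0.55 and 0.99 in the WT, from 5, 6 and 23 reads. The genotypes overlapped, and cKO replicate 4 was the lowest of all. In cKO replicate 3 the start and the next window into the gene (2.15, from 24 reads) stood above the windows on both sides of them (0.17 before and 0.30 after), whereas the other 5 libraries had at most 1.34 in both. The difference was 0.40 ± 0.44 (SE, limma adjusted p = 0.644), from 0.029 without cKO replicate 3 to 0.81 without cKO replicate 4. Against the input library of the same pool, the H3K4me3 reads scaled to library size were 0.354 and 0.418 times the input in cKO replicates 1 and 4 and 0.184 and 0.321 times the input in WT replicates 1 and 4. All 4 ratios were below 1, the level of unprecipitated chromatin, whereas the 7 genes with H3K4me3 had ratios from 1.38 (*Inha*, WT replicate 4) to 5.15 (*Amh*, cKO replicate 1). In cKO replicates 1 and 4 the median window held 11 and 47 H3K4me3 reads, beside 44 and 52 input reads. In WT replicates 1 and 4 it held 12 and 41 H3K4me3 reads, beside 41 and 52 input reads. Scaled to library size, the median window was also below the input, so a ratio below 1 was not particular to the receptor genes.

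*Lhcgr*, the receptor of luteinizing hormone, which granulosa cells acquire late in follicle growth, starts in chr17:88790001-88795000. Its values were 1.34, 1.23 and 2.10 normalized RPKM in the cKO and 1.44, 1.42 and 1.26 in the WT, again overlapping, with a difference of 0.18 ± 0.36 (SE, limma adjusted p = 0.818) that turned to −0.089 without cKO replicate 4. Its ratios to the input were 0.299 and 0.761 in cKO replicates 1 and 4 and 0.614 and 0.489 in WT replicates 1 and 4. *Amhr2*, the receptor of anti-Müllerian hormone, was higher. Its start (chr15:102445001-102450000) had 3.72, 5.06 and 4.80 normalized RPKM in the cKO and 4.26, 4.24 and 3.93 in the WT, where cKO replicate 1 was the lowest library and the others of the cKO the highest (difference 0.38 ± 0.41, SE, limma adjusted p = 0.643). The difference was 0.12 without cKO replicate 3 and 0.78 without cKO replicate 1.

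Among the hormones and ligands no start passed the threshold. The genotypes overlapped at *Amh* and *Kitl*, and at the inhibin subunits *Inha* and *Inhba* they overlapped as RPM (reads scaled to library size) but not on the normalized scale. *Amh*, which encodes anti-Müllerian hormone, starts in chr10:80805001-80810000 and had 6.89, 4.40 and 5.28 normalized RPKM in the cKO and 5.20, 4.44 and 4.83 in the WT. Both the highest and the lowest library were of the cKO (difference 0.70 ± 0.57, SE, limma adjusted p = 0.533), and the difference was 0.015 without cKO replicate 1 and 1.26 without cKO replicate 3.
*Kitl*, the ligand of the oocyte receptor KIT, starts in chr10:100015001-100020000 and had 6.16, 4.66 and 4.89 normalized RPKM in the cKO and 5.15, 5.12 and 4.83 in the WT, with the same spread of the cKO around the WT (difference 0.21 ± 0.44, SE, limma adjusted p = 0.829), and the difference was −0.26 without cKO replicate 1.

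*Inha* encodes the alpha subunit that makes an inhibin. Its start lies in chr1:75505001-75510000, a window that the table assigns to the neighbouring gene *Obsl1*, which is transcribed in the other direction, so this window is not among the 93 and its mark cannot be divided between the genes. The values were 5.72, 4.40 and 6.44 normalized RPKM in the cKO and 3.27, 3.76 and 3.27 in the WT. Every cKO library was above every WT library (difference 2.09 ± 0.50, SE), and the window did not pass the threshold (limma adjusted p = 0.0810), but was called without cKO replicate 3 (difference 2.65, limma adjusted p = 0.0424). It was not called with any other library left out (limma adjusted p from 0.0647 to 0.251). Nor was it called under log2(value + 1), log2(RPM + 0.5) or quantile normalization (limma adjusted p = 0.262, 0.551 and 0.226) or by edgeR (adjusted p = 0.633). The window assigned to *Inha* itself, chr1:75510001-75515000, had 3.17, 3.47 and 3.30 in the cKO and 1.60, 2.30 and 1.74 in the WT, and also did not pass (difference 1.44 ± 0.35, SE, limma adjusted p = 0.0827). The next pair of windows upstream, within *Obsl1* and looked at after their values were seen, were called as gains with differences of 3.19 and 3.65 normalized RPKM, so the higher values at *Inha* were part of a longer stretch.

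*Inhba* encodes the beta A subunit shared by inhibin and activin. Its start (chr13:16010001-16015000) had 7.22, 6.38 and 6.53 normalized RPKM in the cKO and 5.31, 6.29 and 6.11 in the WT. The cKO lay above the WT, with cKO replicate 3 and WT replicate 2 close together, and the difference of 0.81 ± 0.40 (SE) did not pass (limma adjusted p = 0.392). It was 0.51 without WT replicate 1, the lowest library. A window 10 kb further into the gene had 6.28, 4.93 and 6.34 in the cKO and 4.21, 4.24 and 4.77 in the WT (difference 1.44 ± 0.44, SE, limma adjusted p = 0.154).

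The transcription factors had differences of opposite sign. *Foxl2*, which maintains the identity of granulosa cells, starts in chr9:98955001-98960000, a window with 310 CpGs. It had 6.39, 8.36 and 6.44 normalized RPKM in the cKO and 4.52, 3.86 and 4.26 in the WT. The groups did not overlap, and with a difference of 2.85 ± 0.53 (SE, limma adjusted p = 0.0415) it was the only one of the 93 windows that passed the threshold, as a gain. Of all windows, 0.563% were called as gains, 0.454% as losses and 1.02% in either direction. The call was lost when replicate 3 or 4 of the cKO was left out (limma adjusted p = 0.0511 and 0.102) and when replicate 1, 2 or 4 of the WT was (0.111, 0.149 and 0.133), while the difference stayed between 2.199 and 3.185. Without replicate 1 of the WT 1 window of the whole table was called, and without replicate 2 or 4 of the WT or replicate 4 of the cKO 0 were, against 0.323% without replicate 3 of the cKO. The call was also lost under log2(value + 1) (limma adjusted p = 0.206), log2(RPM + 0.5) (0.490) and quantile normalization (0.151), fits with 0 or 1 calls over the whole table, and by edgeR on whole reads (adjusted p = 0.744), which called 2.29% of the 503726 windows with at least 10 reads. It held with an intensity trend and among windows with a mean of at least 1 (limma adjusted p = 0.0145 and 0.0357). As RPM the genotypes overlapped, with 7.91, 5.96 and 5.10 in the cKO and 5.43, 3.69 and 4.03 in the WT. *Foxl2os* starts on the other strand in the same window, so its mark cannot be told apart from that of *Foxl2*.

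*Nr5a1*, a nuclear receptor that drives steroidogenic genes, was the member with less H3K4me3 at its start in the cKO. The window chr2:38710001-38715000 had 3.11, 3.34 and 1.90 normalized RPKM in the cKO and 4.94, 3.37 and 3.90 in the WT. The groups did not overlap, although cKO replicate 3 and WT replicate 2 nearly met, and the difference of −1.28 ± 0.51 (SE) did not pass (limma adjusted p = 0.271). It was −0.85 without WT replicate 1 and −0.84 without cKO replicate 4. The next window into the gene, chr2:38705001-38710000, separated more clearly. It had 1.45, 2.29 and 2.68 in the cKO and 4.05, 4.15 and 3.42 in the WT, a difference of −1.74 ± 0.41 (SE, limma adjusted p = 0.0800), the largest decrease among the 93 windows.

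*Cyp19a1*, the aromatase gene, has several starts. Its annotated gene start is a distal one, in chr9:54265001-54270000, a window assigned to *1700104A03Rik*, with 1.56, 1.76 and 2.77 normalized RPKM in the cKO and 1.28, 1.52 and 1.53 in the WT. The cKO lay just above the WT (difference 0.59 ± 0.40, SE, limma adjusted p = 0.491), and the difference was 0.22 without cKO replicate 4, the highest library. The ovarian start printed above lies in chr9:54190001-54195000 and carried 4.28, 6.91 and 6.20 in the cKO and 4.05, 4.24 and 5.07 in the WT. There the groups overlapped, since cKO replicate 1 was within the WT range (difference 1.34 ± 0.62, SE, limma adjusted p = 0.347). Without cKO replicate 1 the difference was 2.10 and the window was called (limma adjusted p = 0.0403), in a fit that called 3.30% of all windows, and without cKO replicate 3 it was 0.78. The highest window of the gene, chr9:54185001-54190000, did not follow this order, with 7.33, 4.53 and 4.75 in the cKO and 6.41, 6.39 and 5.01 in the WT.

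Away from the starts, most windows of these genes were low in both genotypes. Of the 93 windows, 68 had a mean under 2 normalized RPKM and 14 a mean of at least 4, and 84 held at least 1 read in every library. All 44 windows of *Fshr*, which is spread over a long stretch of chromosome 17, had a mean under 2, with 1.31 as the highest, and the highest window of *Lhcgr* had 2.62. By contrast *Kitl* carried a broad stretch, with 5 windows from its start on between 5.14 and 5.80. The window in this stretch with the largest increase of the gene had 7.22, 6.51 and 6.10 in the cKO and 5.99, 3.95 and 5.01 in the WT (difference 1.63 ± 0.53, SE, limma adjusted p = 0.174). *Amhr2* was highest in the window after its start, with a mean of 5.40 and a difference of 0.097.

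**Figure D2:**
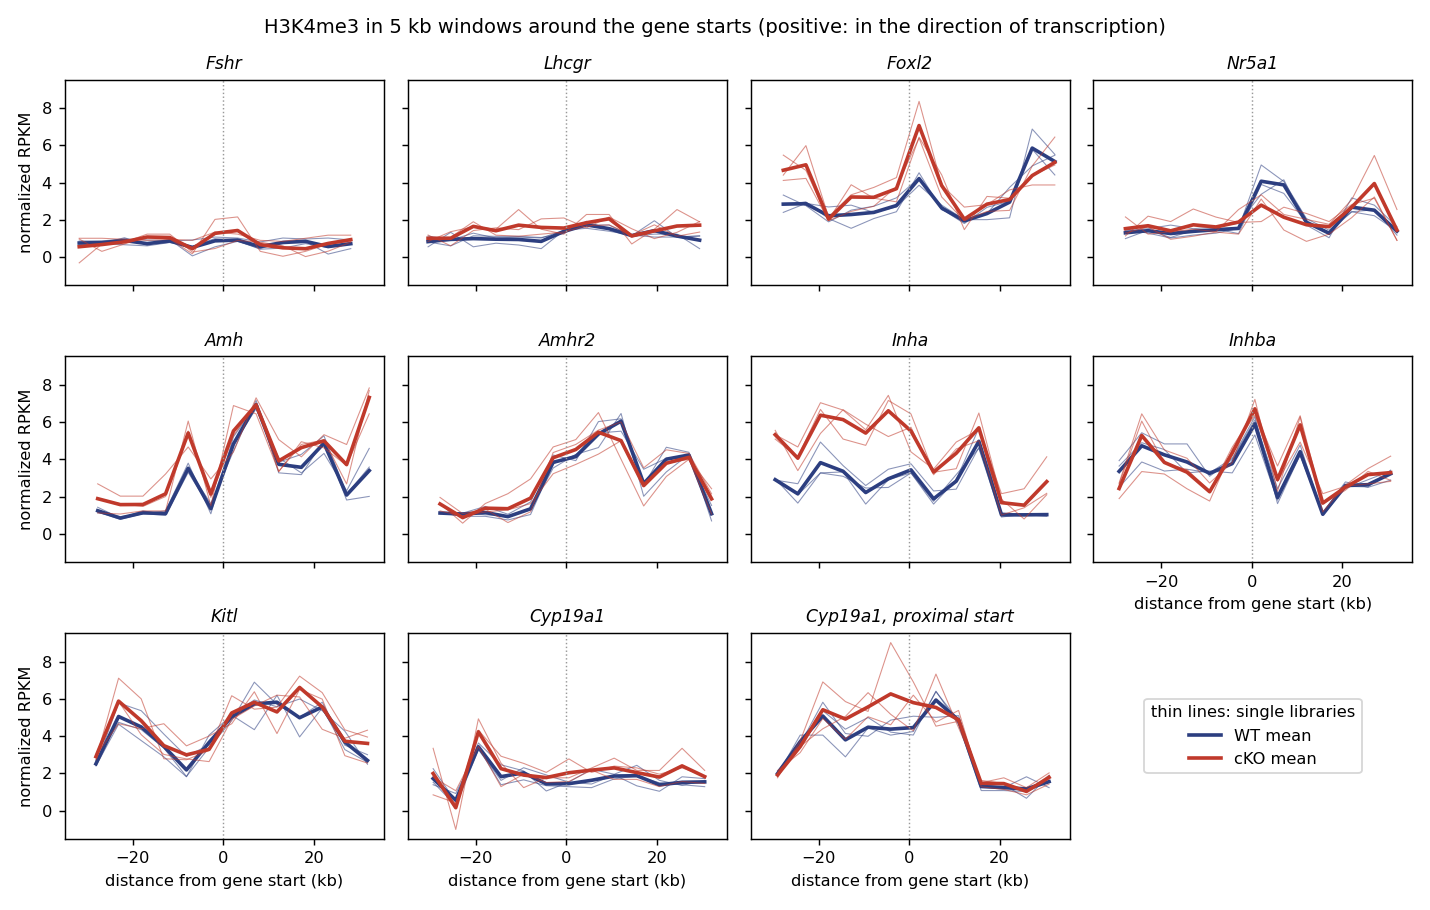
H3K4me3 (normalized RPKM, y axis) in the 5 kb windows up to 30 kb before and after each gene start (x axis, kb along the direction of transcription), with an extra panel for the ovarian start of *Cyp19a1*. Thick lines are the means of 3 cKO (red) and 3 WT (blue) libraries and thin lines single libraries; *Fshr* and *Lhcgr* stay low, with a rise around the *Fshr* start in cKO replicate 3, the start of *Foxl2* stands above the windows next to it in every library, and *Inha* lies in a stretch that is higher in the cKO.

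Counted over the 93 windows, 1 was called as a gain and 0 as losses (limma). At an unadjusted p under 0.05 there were 7, namely 2 of *Inhba*, 2 of *Nr5a1* and 1 each of *Inha*, *Foxl2* and *Kitl*, against 14.9% of all windows. In 10 windows every cKO library was above every WT library, and in 3 every cKO library was below, against 9.88% and 9.95% of all windows. The mean was higher in the cKO in 62 of the 93 windows, against 43.7% of all windows, and the median difference was 0.15 normalized RPKM. Windows of one gene lie next to each other and are not independent, and 44 of them belong to *Fshr*.

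At the 10 gene starts, 1 window was called, against 1.93% of the 20269 windows that hold the start of a protein-coding gene (1.18% as gains and 0.75% as losses). The cKO lay above the WT without overlap at *Cyp19a1*, *Inha*, *Inhba* and *Foxl2*, 4 of 10 against 15.2% of protein-coding starts, and below at *Nr5a1*, 1 of 10 against 8.99%. The mean was higher in the cKO at 9 of 10, against 54.2%. Of all protein-coding starts, 99.6% had a lower difference than *Foxl2*, 98.0% a lower one than *Inha* and 6.52% a lower one than *Nr5a1*, while the other 7 genes lay between 53.9% and 78.3%.

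Read library by library, the mean over the 10 starts was 4.35, 4.16 and 4.16 normalized RPKM in the cKO and 3.65, 3.46 and 3.49 in the WT. On this scale the cKO pools were close to each other, the WT pools likewise, and the groups did not overlap. As RPM, the genotypes overlapped at 9 of the 10 starts. The difference was 0.69, and it was 0.45 without *Foxl2*, 0.54 without *Inha* and 0.91 without *Nr5a1*. Over all protein-coding starts the difference of the means was 0.10. Averaged over all member windows with each gene given the same weight, the libraries had 3.55, 3.83 and 3.53 in the cKO and 3.01, 2.94 and 3.03 in the WT, a difference of 0.64. For the receptors *Fshr* and *Lhcgr* alone the mean of the starts was 1.34, 1.62 and 1.28 in the cKO and 1.25, 0.986 and 1.12 in the WT, near the 40th percentile of each library. In the libraries, differences in the number of follicle cells, in the mark per follicle cell and in the mark of the oocytes themselves cannot be told apart.

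No single pool carried the highest values throughout, although WT replicate 1 was the highest of its group most often. Within the cKO, replicate 1 was the highest library at 3 of the 10 starts, replicate 3 at 4 and replicate 4 at 3. Within the WT, replicate 1 was the highest at 7, replicate 2 at 2 and replicate 4 at 1. Over the 93 windows, replicates 1, 3 and 4 of the cKO were the highest of their group in 37, 39 and 17. Replicates 1, 2 and 4 of the WT were the highest of theirs in 49, 21 and 23. The same count over all protein-coding starts was not made. WT replicate 1 and cKO replicate 1 are also the most enriched libraries of their groups, and the part of enrichment in these orders was not tested.

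The scale decided which starts separated the genotypes. As percentiles within each library, the same 5 starts did not overlap as on the normalized scale (4 above, against 14.9% of protein-coding starts, and 1 below, against 9.54%). At *Foxl2* the percentiles were 98.3, 99.9 and 98.5 in the cKO and 91.4, 88.0 and 87.6 in the WT, and at *Fshr* they were 46.8, 59.8 and 17.4 in the cKO and 29.4, 14.6 and 28.5 in the WT. As RPM, by contrast, only *Fshr* did not overlap, against 6.26% of protein-coding starts with the cKO above and 6.66% with it below. Its RPM were 0.783, 1.93 and 0.826 in the cKO and 0.382, 0.553 and 0.702 in the WT. These are the values of 5 to 24 reads, and neither limma on log2(RPM + 0.5) nor edgeR on whole reads called the window (unadjusted p = 0.0945 and 0.145). On log2(RPM + 0.5) the mean was higher in the cKO at 6 of the 10 starts, with *Amhr2*, *Inhba* and *Kitl* turned around, against 44.7% of protein-coding starts on that scale.

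**Figure D3:**
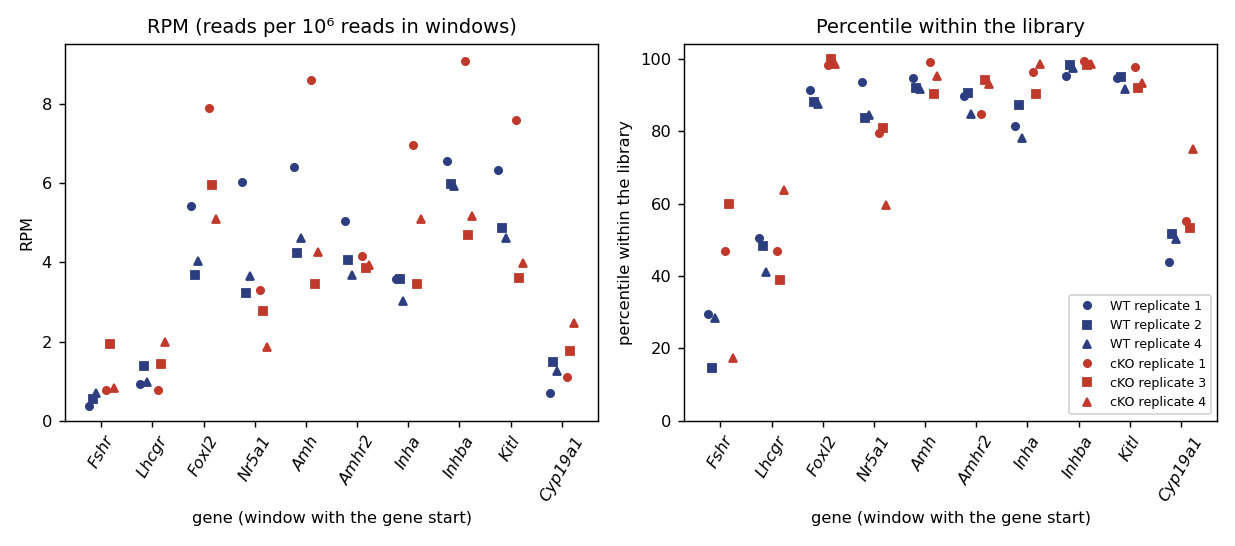
The same 10 windows as RPM (left) and as percentiles among all windows of the same library (right), 1 point per library, blue for WT and red for cKO. *Foxl2* separates the genotypes on the percentile scale and overlaps as RPM, and *Fshr* does the reverse.

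The differences were also set beside the CpG count of the window, which the choice of genes did not use. Protein-coding starts with at least 100 CpGs had a median difference of 0.35 normalized RPKM, and those with fewer had −0.067. The 5 members with at least 100 CpGs (*Foxl2*, *Nr5a1*, *Inha*, *Amh* and *Kitl*) had a median difference of 0.70 and the 5 with fewer (*Inhba*, *Lhcgr*, *Amhr2*, *Fshr* and *Cyp19a1*) one of 0.40. *Foxl2* with 310 CpGs and *Nr5a1* with 259 CpGs lay on opposite sides of the quartiles of starts with at least 250 CpGs (−0.34 and 1.38).

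**Figure D4:**
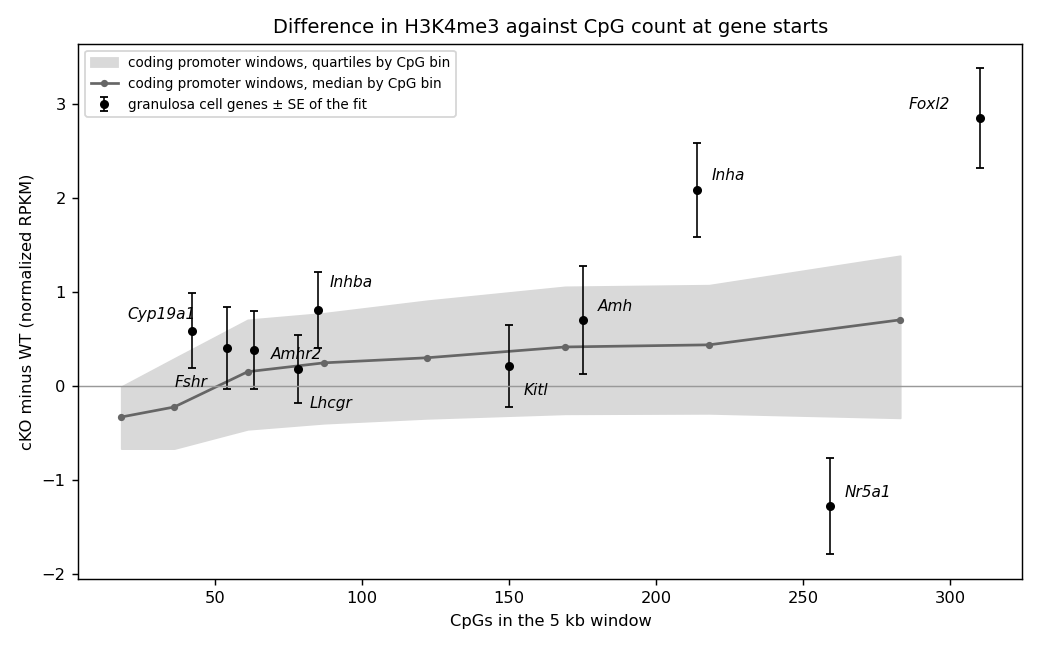
Difference in H3K4me3 between cKO and WT (normalized RPKM, y axis) against the number of CpGs in the 5 kb window (x axis). The grey line and band are the median and quartiles of protein-coding starts in bins of CpG count, and black points are the 10 genes with the SE of the limma fit, with *Foxl2*, *Inha*, *Inhba* and *Cyp19a1* above the upper quartile of their bin and *Nr5a1* below the lower quartile of its bin.

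Genes of other cell types were compared at their starts in the same way. Of 24 other granulosa and cumulus cell genes, *Igf1*, which encodes a growth factor made in the follicle, was called as a gain and no gene as a loss, against 1.18% and 0.75% of protein-coding starts, and the mean was higher in the cKO for 21. At an unadjusted p under 0.05 there were 10 of the 24, against 24.3% of protein-coding starts, and at 9 the cKO lay above the WT without overlap, against the 15.2% above. The *Igf1* start lies in chr10:87855001-87860000, a window that the deposited table assigns to *Gm16176*, so its mark cannot be credited to *Igf1* alone. *Igf1* had 5.06, 4.93 and 3.83 normalized RPKM in the cKO and 1.39, 1.52 and 1.32 in the WT (difference 3.20 ± 0.40, SE, limma adjusted p = 0.0159). The groups lay far apart, but the call was lost without WT replicate 1, 2 or 4 or cKO replicate 4 (limma adjusted p = 0.0710, 0.0901, 0.0702 and 0.0668), fits in which 0 or 1 windows of the whole table were called. The difference stayed between 2.97 and 3.58 with any library left out, and the start was also called by edgeR (adjusted p = 0.000105) and by limma with an intensity trend (adjusted p = 0.00101). It was not called under log2(value + 1), log2(RPM + 0.5) or quantile normalization (limma adjusted p = 0.0798, 0.189 and 0.0759). The median difference of these 24 genes was 0.97, against 0.094 for all protein-coding starts. The highest of them were *Foxo1* (7.02) and *Gja1*, the gap junction protein between granulosa cells (5.74), and the lowest *Ereg* (1.19) and *Runx1* (1.69).

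Theca cells, which surround the granulosa layer, and the stroma gave differences of the same sign. The counts of calls and at an unadjusted p under 0.05 are to be set beside the 1.93% and 24.3% of protein-coding starts, here and in the other lists. Of 10 theca and stroma genes 0 were called by limma, with 5 at an unadjusted p under 0.05, and all 10 had a higher mean in the cKO, with a median difference of 1.16. Here *Gli1* (6.06) and *Insl3* (5.68) were the highest and *Hsd3b1* (1.21) and *Star* (1.82) the lowest. For 5 genes of the surface epithelium the median difference was 0.38 with 4 higher in the cKO (0 called by limma, 2 at an unadjusted p under 0.05), where *Msln* (4.02) and *Krt7* (3.61) were the highest and *Upk3b* (1.80) and *Krt19* (1.82) the lowest. For 11 genes of endothelium and blood it was 0.08 with 6 higher in the cKO (0 called, 0 at an unadjusted p under 0.05), and its sign turned under log2(value + 1) and under quantile normalization. There *Tek* (6.44) and *Kdr* (5.09) were the highest, and *Hbb-bt* (0.62), a globin of red blood cells, and *Cd68* (1.23), a gene of macrophages, the lowest.

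Genes known from other organs and from the oocyte were compared too, although the lists were not matched for CpG count. The median window held 117.5 CpGs for the 10 granulosa genes, 110.5 for the other granulosa genes and 122.5 for theca and stroma. It held 68 for the surface epithelium, 54 for endothelium and blood, 72.5 for other organs, 77 for oocyte genes and 88 for protein-coding starts. The part of CpG count in the differences between lists was not tested. For 16 genes of other organs the median difference was 0.49 normalized RPKM, close to that of the 10 granulosa genes (also 0.49), with 11 higher in the cKO (0 called by limma, 6 at an unadjusted p under 0.05, against the 1.93% and 24.3% above). Among these, *Olig2* (6.24), a factor of the oligodendrocyte lineage, and *Pax6* (5.98), a factor of eye and pancreas, had levels like *Foxl2* and *Inhba*, while *Ins2* (1.09) and *Gcg* (2.08) were the lowest. The 20 oocyte genes went the other way, with a median difference of −0.65, 6 higher in the cKO and 8 with the cKO below the WT without overlap, against 8.99% of protein-coding starts (0 called by limma, 9 at an unadjusted p under 0.05, against 1.93% and 24.3%). On log2(RPM + 0.5), 1 of the 20 was higher in the cKO, beside 20 of the 24 other granulosa genes, 8 of the 10 theca and stroma genes, 10 of the 16 genes of other organs and 44.7% of protein-coding starts. Their highest members were *Gdf9* (9.08), whose promoter is also part of the Cre transgene of the cKO, and *Mos* (7.20), and the lowest *Sohlh1* (3.76) and *Zar1* (3.97). No member of the oocyte list had a mean as low as *Fshr*, *Lhcgr* or the distal start of *Cyp19a1*.

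**Figure D5:**
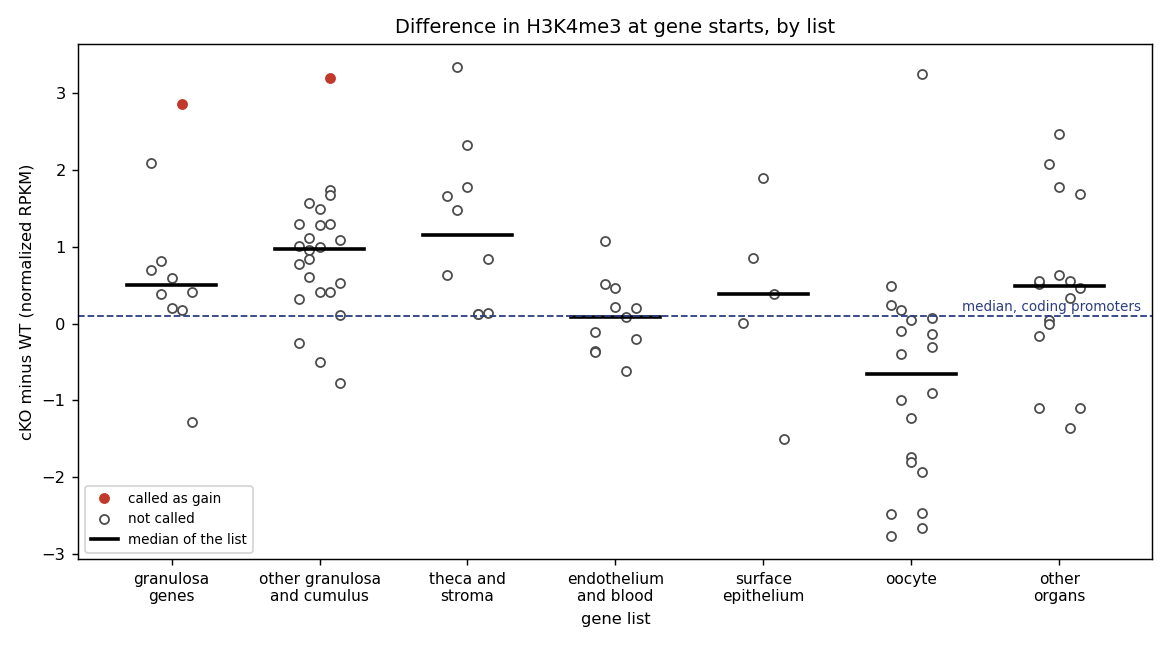
Difference between cKO and WT (normalized RPKM, y axis) at the gene starts of the 10 granulosa genes and of the 6 comparison lists (x axis). Each circle is a gene, filled where limma called it, black lines are list medians, and the dashed line is the median of protein-coding starts (0.094).

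The pattern of the mean over the 10 starts was also compared with that of single genes. Among 21876 protein-coding genes, 186 had a Pearson correlation above 0.95 with it, across 6 libraries that also differ in depth and enrichment. The closest were *Slc22a15* (r = 0.997), *Shisa7* (0.996), *Gpr63* (0.994), *Lefty1* (0.994) and *2010111I01Rik* (0.994).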

How the data were processed

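H3K4me3 was profiled by ultra-low-input native ChIP-seq. The submitters' processing notes name Trim Galore 0.4.2, Bowtie2 2.2.9 and GRCm38. The deposited H3K4me3 values are a score, the enrichment-normalized RPKM that the authors computed in SeqMonk for 5 kb windows after leaving out windows with high input. The deposited input values are a signal, the reads per window scaled by the authors to library size. All H3K4me3 and input values were whole numbers of reads on a library's own step (100% within 0.1 reads), which gave the reads and the RPM (reads scaled to library size). Duplicates cannot be told from fragments, and depth limits windows of few reads.

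Every value column was mapped to a sample by its label. The 3 cKO and 3 WT libraries were compared in R 4.3.3 by limma 3.58.1 (fitted to the deposited values, no intensity trend, two-sided, Benjamini-Hochberg over 544879 windows, adjusted p under 0.05). The test was checked on simulated data. Alternatives were log2(value + 1), log2(RPM + 0.5), an intensity trend, quantile normalization, edgeR 4.0.16 on whole reads (at least 10 reads), a mean of at least 1, a block for replicate number, each library left out in turn, and windows over the annotated gene body. Counts of called windows and medians of a list are given beside those of all windows or of all protein-coding starts, with no test of the list. An exact permutation test of 3 libraries against 3 cannot give a p under 0.1 and was not used. The labels call the libraries biological replicates.

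Gene starts came from GENCODE M21 and CpGs and sequences from the GRCm38 genome. The last window of 21 chromosomes ended at the chromosome's end. The members, the comparison lists and the rules were chosen with earlier results of these data known. Named windows are the 10 starts, every called member window, the highest window of each gene and the 3 largest increases and decreases. Named comparison genes are the called ones and the 2 highest and 2 lowest of each list. Likeness named the 5 genes of highest correlation. Gene expression was not used here. Upstream stretches other than the 4 printed are not reported here. Other tools were matplotlib 3.10.9, pandas 2.3.3, numpy 2.4.6 and scipy 1.17.1 under Python 3.11.15.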

Additional observations from a re-analysis of the deposited data

How the results depend on the processing

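Member windows called (1 by limma) numbered 0 under log2(value + 1), log2(RPM + 0.5), quantile normalization and edgeR, and 0 to 2 when a library was left out. Called gene starts of the 10 genes (1) numbered 0 under the same 4 settings and 0 to 1 with a library left out. The comparison lists (1 called start) had 0 on both log scales and under quantile normalization, 10 with an intensity trend, 3 with edgeR, 5 at a mean of at least 1 and 0 to 7 with a library left out. Over all windows 0 were called on the log scales and 1 under quantile normalization, with 3.58% with an intensity trend, and edgeR called 2.29% of the 503726 windows with at least 10 reads. Of protein-coding starts, 4.0% were called with an intensity trend, 1.26% of those tested by edgeR, 2.92% of those with a mean of at least 1, and 5.8% without cKO replicate 1. With a library left out, 0 or 1 windows were called over the whole table in 4 of the fits (without WT replicate 1, 2 or 4 or cKO replicate 4), 0.323% without cKO replicate 3 and 3.30% without cKO replicate 1, so lost calls in the 4 fits are not particular to the members. The mean difference over the 10 starts (0.69 normalized RPKM) was 0.63 to 0.75 with a library left out, 0.18 under log2(value + 1) and 0.15 under log2(RPM + 0.5), which are other units. Over all member windows (0.64) it was 0.55 to 0.70, 0.18 and 0.21, and 0.33 as the median over genes. Differences that changed sign were *Amhr2* (−0.079 under log2(RPM + 0.5), −0.16 by edgeR), *Inhba* (−0.020 under log2(RPM + 0.5)), *Kitl* (−0.11, −0.073 by edgeR, −0.26 without cKO replicate 1, and up to 0.50 with another library left out) and *Lhcgr* (−0.089 without cKO replicate 4, and up to 0.34 with another library left out). None of these was called. Over the alternatives the adjusted p ranged from 0.00134 to 0.744 at *Foxl2*, from 0.0126 to 0.355 at the *Nr5a1* window after its start and from 5.93e-08 to 0.189 at *Igf1*. The lowest value of each came from the block for replicate number, in which only the libraries numbered 1 and 4 inform the difference. Where a call was lost, the cause was not tested. Over all named windows and settings, 176 values kept their direction and their side of the threshold, 16 lost and 8 gained a call, and 8 changed sign.

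The genotypes share replicate numbers 1 and 4. Deviations of same-numbered libraries correlated at 0.319 and 0.0190, and libraries of the same number had similar depth (13085547 and 12765905 reads for 1, 32775874 and 29041174 for 4). The labels do not say what a number marks, so it was not taken as a pairing. With it as a block, 5 member windows, 3 member starts and 20 comparison starts were called, against 6.14% of all windows and 12.6% of protein-coding starts, and *Fshr* had −0.13. The starts of *Inha* and *Nr5a1* and the next window of *Nr5a1* were among these (limma adjusted p = 1.32e-06, 0.00287 and 0.0126). Replicate number 2 occurs only in the WT and number 3 only in the cKO. The differences in this fit therefore rest on the libraries numbered 1 and 4 alone, which leaves little from which to estimate the spread.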
